A study of Homo sapiens with 8 samples.

Results

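The genes described here are 8 transcription factors that mark early neural ectoderm: PAX6, ZIC1, ZIC2, OTX2, SOX1, SOX3, LHX2 and SIX3. They were chosen by name, and a probe set (the group of short oligonucleotides that reports 1 transcript on these arrays) was used only where it names 1 of them and no other gene. They are 8 of the 19775 genes that have a probe set of their own, and they hold 18 probe sets in all. Where a gene has several, the brightest on average over all 8 arrays gives its main value.

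RNA was measured on 8 Affymetrix arrays from human embryonic stem cells, labelled as the established line H9 and grown in mTeSR, a defined medium for pluripotent cells. The 4 groups were embryoid bodies with 20 mM ethanol, embryoid bodies with 0 mM ethanol, undifferentiated cells with 20 mM ethanol and undifferentiated cells with 0 mM ethanol, with 2 arrays (A and B) in each and exposure for 24 h. Embryoid bodies are floating aggregates in which pluripotent cells begin to form derivatives of the embryonic germ layers, and the labels do not give their age. The study's question, from its design, is what ethanol does to the RNA of the cells at each stage. The labels do not say that A and B came from separate cultures, so each p-value measures only the spread between these samples.

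A check on transcripts that differ between cell lines found 4 of the 8 arrays against the line in their labels, and these 4 are all the arrays of 1 of the 2 stages. For every difference between stages given here, differentiation and cell line cannot be told apart. The ethanol changes are taken within a stage and do not cross this divide, but the difference between the stages in ethanol effect does. The standard errors and p-values of the ethanol changes use the spread of all 8 arrays, and so of both stages.

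Neural ectoderm is the part of the outer germ layer that forms the neural plate and then the brain and spinal cord. SOX1, SOX2 and SOX3 are related factors that keep cells in a neural progenitor state, ZIC factors are zinc finger proteins of the neural plate and its border, and OTX2, SIX3, LHX2 and PAX6 pattern the forebrain, midbrain and eye. Several of these genes are also active outside the neural plate, in placodes or in the pluripotent epiblast, where OTX2, ZIC2 and SOX3 are known to be expressed. PAX6 and SOX1 are the members most often used to score neural induction of human pluripotent cells.

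The members fell into 2 patterns by stage. PAX6, ZIC1, SOX1, LHX2 and SIX3 were higher in embryoid bodies than in undifferentiated cells at both ethanol doses, by 4.37 to 63.1 times. ZIC2, OTX2 and SOX3 had signals far above the array median at both stages and differed between them by at most 1.51 times. No member was called for ethanol at either stage. As a list, the 8 genes therefore do not mark embryoid bodies alone.

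**Figure D1:**
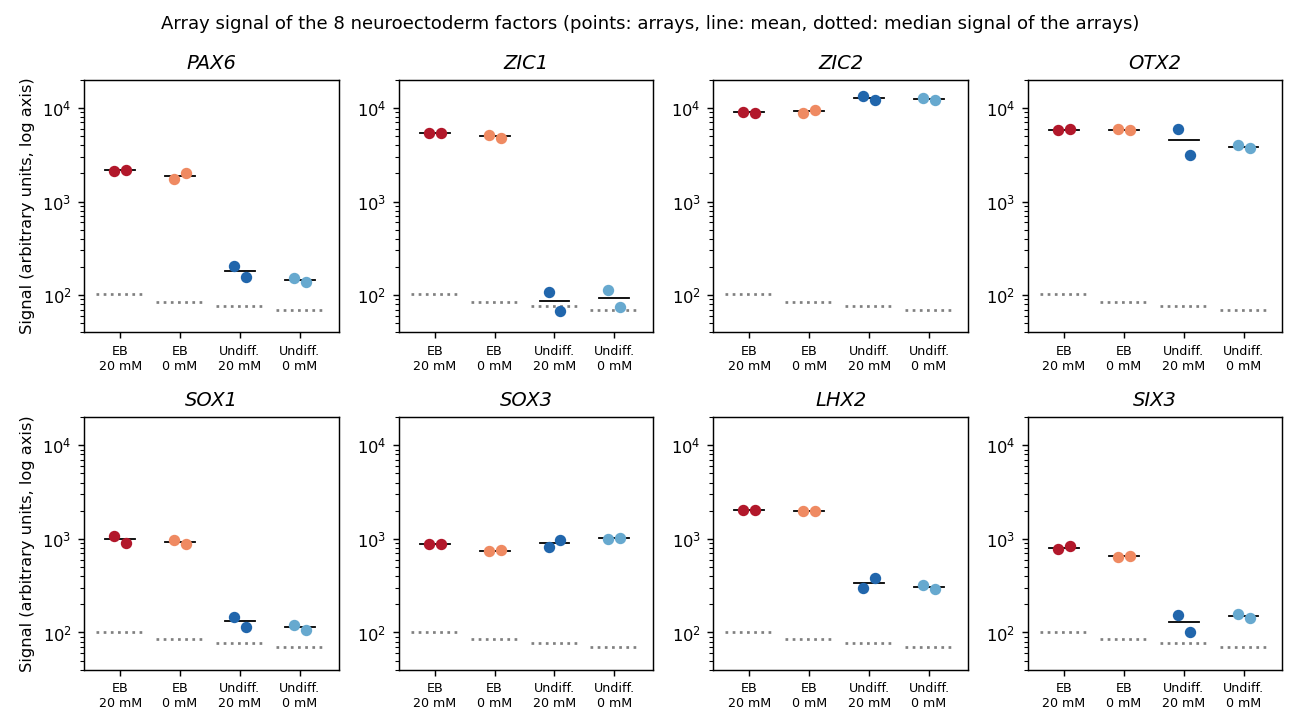
Signal (arbitrary units, log axis) of the main probe set of each of the 8 genes on the 8 arrays. Points are arrays, the short line is the group mean, and the dotted line is the mean of the 2 array medians of the group (single arrays 69.2 to 102). PAX6, ZIC1, SOX1, LHX2 and SIX3 separate the stages, whereas ZIC2, OTX2 and SOX3 are high in all 4 groups.

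The array signal is on a linear scale that was set to about the same trimmed mean (499.96 to 500.13) on every array. The median signal was nonetheless 102 on both 20 mM and 85.1 on both 0 mM embryoid body arrays, and 74.1 to 79.4 on the 20 mM and 69.2 to 70.8 on the 0 mM undifferentiated arrays. The median serves here as a rough mark of dim signals, since no detection calls were used. Of the pluripotency genes, LIN28A, an RNA-binding protein of early embryonic cells, read 17378 to 19953 in embryoid bodies and 22387 to 25704 in undifferentiated cells, and NANOG, a core pluripotency factor, read 3715 to 4677 in embryoid bodies and 7943 to 8511 in undifferentiated cells. Both genes were far above the array median in embryoid bodies. DNMT3B and PODXL of the same list were brighter than NANOG and were not called between the stages at either dose. DNMT3B read 18621 to 22387 in embryoid bodies and 20893 to 23442 in undifferentiated cells. AFP, a protein of yolk sac and fetal liver, read 6026 to 9772 in embryoid bodies and 155 to 257 in undifferentiated cells, and APOA1, an apolipoprotein, read 10965 to 11749 in embryoid bodies and 109.6 to 199.5 in undifferentiated cells. In RNA of whole cultures, fewer cells of a type and less RNA per cell cannot be told apart.

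PAX6, the paired-domain factor of forebrain and eye progenitors, was about 12 times higher in embryoid bodies. With 20 mM ethanol its signal was 2138 and 2188 in embryoid bodies, against 204 and 155 in undifferentiated cells. Without ethanol it was 1738 and 1995 in embryoid bodies, against 151 and 138 in undifferentiated cells. Every embryoid body array lay above every undifferentiated array. The fold was 12.2 at 20 mM (log2 3.60 ± 0.15, standard error of the fit, limma adjusted p = 4.47e-05) and 12.9 at 0 mM (log2 3.69 ± 0.15, limma adjusted p = 4.63e-05). The second PAX6 probe set gave smaller differences, with log2 values of 2.79 at 20 mM and 2.84 at 0 mM. It read 1230.3 to 1445 in embryoid bodies and 178 to 199.5 in undifferentiated cells.

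ZIC1 had the widest stage difference of the 8. Its signal with 20 mM ethanol was 5370.3 on both embryoid body arrays, against 107 and 67.6 on the undifferentiated arrays. At 0 mM it was 5129 and 4786 in embryoid bodies, against 112 and 74.1 in undifferentiated cells. The undifferentiated values straddled the level of the array median, with 3 of 4 above it, so the fold there rests on dim signals. Embryoid bodies were 63.1-fold higher at 20 mM (log2 5.98 ± 0.27, limma adjusted p = 5.81e-05) and 54.3-fold higher at 0 mM (log2 5.76 ± 0.27, limma adjusted p = 7.46e-05). A second ZIC1 probe set read 245 to 275 in embryoid bodies and 16.6 to 22.4 in undifferentiated cells, with log2 differences of 3.89 at 20 mM and 3.75 at 0 mM. The remaining set read 6.76 to 36.3 in embryoid bodies and 11.7 to 63.1 in undifferentiated cells and was never above the array median.

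ZIC2, a relative of ZIC1 that is needed for forebrain division and is also expressed in pluripotent cells, went the other way by a small amount. With 20 mM ethanol it read 9120.1 and 8913 in embryoid bodies, against 13489.6 and 12023 in undifferentiated cells. Without ethanol it read 8913 and 9549.9 in embryoid bodies, against 12883 and 12023 in undifferentiated cells. The stages did not overlap at either dose. ZIC2 was 1.41 times lower in embryoid bodies at 20 mM (log2 -0.50 ± 0.09, limma adjusted p = 0.00489) and 1.35 times lower at 0 mM (log2 -0.43 ± 0.09, limma adjusted p = 0.00925). Without embryoid body replicate A at 0 mM, the second value missed the threshold (log2 -0.38, limma adjusted p = 0.0569). ZIC2 has 1 probe set, so no other probe set bears on it.

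The upstream windows of this pair are shown because the 2 paralogs moved in opposite directions between the stages. They are the 250 bases before the annotated start, from RefSeq on GRCh38.p14, 5′ to 3′ on the gene's strand: chr3:147409115-147409364 on the plus strand for ZIC1 and chr13:99981534-99981783 on the plus strand for ZIC2. Capitals mark CCAAT boxes (CCAAT, or ATTGG on the other strand) and GC boxes (GGGCGG, or CCGCCC on the other strand).
ZIC1: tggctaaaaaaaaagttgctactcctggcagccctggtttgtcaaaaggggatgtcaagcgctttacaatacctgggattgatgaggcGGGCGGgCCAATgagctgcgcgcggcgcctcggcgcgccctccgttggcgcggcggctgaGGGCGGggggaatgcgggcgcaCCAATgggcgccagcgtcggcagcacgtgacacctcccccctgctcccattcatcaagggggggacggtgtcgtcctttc
ZIC2: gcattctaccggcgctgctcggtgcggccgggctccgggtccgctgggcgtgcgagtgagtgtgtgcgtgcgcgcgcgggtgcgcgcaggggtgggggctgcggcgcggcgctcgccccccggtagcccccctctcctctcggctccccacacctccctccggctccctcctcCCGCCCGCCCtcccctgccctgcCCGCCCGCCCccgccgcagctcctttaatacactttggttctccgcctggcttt
The ZIC1 window holds 2 CCAAT boxes and 2 GC boxes, a GC content of 64.4% and 23 CG pairs. The ZIC2 window holds no CCAAT box and 4 GC boxes, which overlap in pairs, a GC content of 75.6% and 31 CG pairs. Among 35116 RefSeq windows of the same length, 32.0% hold a CCAAT box and 42.6% a GC box, the median GC content is 58% and the median number of CG pairs is 11. These matches describe letters in a window and are not binding sites.

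SOX1, which marks the neural plate, rose with stage, whereas its relative SOX3 did not. With 20 mM ethanol SOX1 read 1072 and 912 in embryoid bodies, against 148 and 115 in undifferentiated cells. At 0 mM it read 977 and 891 in embryoid bodies, against 120.2 and 107 in undifferentiated cells. All embryoid body arrays were above all undifferentiated arrays. The fold was 7.59 at 20 mM (log2 2.92 ± 0.15, limma adjusted p = 9.35e-05) and 8.22 at 0 mM (log2 3.04 ± 0.15, limma adjusted p = 9.50e-05). SOX1's other 2 probe sets were above the array median on no array: 1 read 31.6 to 52.5 in embryoid bodies and 10.7 to 28.2 in undifferentiated cells, and the other, the 1 that the annotation ties to a RefSeq transcript, read 4.57 to 11.2 in embryoid bodies and 3.89 to 11.5 in undifferentiated cells. The SOX1 values therefore rest on a single probe set.

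SOX3, a progenitor factor that pluripotent cells also express, was flat at 20 mM and slightly lower at 0 mM. With 20 mM ethanol it read 891 and 871 in embryoid bodies, against 813 and 977 in undifferentiated cells, and these overlapped. Without ethanol it read 741 and 759 in embryoid bodies, against 1000 and 1023 in undifferentiated cells, which did not overlap. The log2 difference was -0.02 ± 0.10 at 20 mM (limma adjusted p = 0.901, 95% interval -0.26 to 0.23) and -0.43 ± 0.10 at 0 mM, which is 1.35 times lower in embryoid bodies (limma adjusted p = 0.0143). The call at 0 mM was lost when any 1 of the 4 arrays compared was left out (limma adjusted p = 0.0519 to 0.0693). Centring each array on its median instead gave -0.43 at 20 mM (limma adjusted p = 0.0245). That setting lowered the differences at 0 mM too, by 0.28 for the median over all genes. The centred value at 20 mM is therefore not comparable with the uncentred -0.43 at 0 mM. The second SOX3 probe set, the 1 that the annotation ties to a RefSeq transcript, was above the array median on no array. It read 5.13 to 45.7 in embryoid bodies and 3.24 to 51.3 in undifferentiated cells. The SOX3 values, like those of SOX1, therefore rest on a single probe set.

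The windows upstream of the SOX pair are shown because SOX1 was called higher in embryoid bodies and SOX3 was not, with the same marking as for the ZIC pair: chr13:112066899-112067148 on the plus strand for SOX1 and chrX:140505070-140505319 on the minus strand for SOX3, GRCh38.p14, from RefSeq.
SOX1: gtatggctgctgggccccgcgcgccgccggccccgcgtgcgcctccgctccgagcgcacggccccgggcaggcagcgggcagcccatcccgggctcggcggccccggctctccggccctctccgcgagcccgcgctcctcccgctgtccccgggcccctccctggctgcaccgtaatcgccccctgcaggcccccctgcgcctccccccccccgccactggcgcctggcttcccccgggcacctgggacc
SOX3: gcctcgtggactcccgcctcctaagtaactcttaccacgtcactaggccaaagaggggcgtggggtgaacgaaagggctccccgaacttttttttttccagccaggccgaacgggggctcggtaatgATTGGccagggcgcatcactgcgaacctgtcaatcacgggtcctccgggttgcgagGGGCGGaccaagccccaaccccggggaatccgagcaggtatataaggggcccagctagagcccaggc
The SOX1 window holds neither motif and is 82% GC with 31 CG pairs. The SOX3 window holds 1 CCAAT box and 1 GC box and is 61.6% GC with 17 CG pairs. A search on both strands for TATAAA (10.7% of all windows), the OTX-type core TAATCC (5.62%) and the SOX-type core ACAAAG (13.7%) found no match in any of these 4 windows.

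LHX2, a LIM homeodomain factor of the eye field and cortex, was tightly grouped at each stage. With 20 mM ethanol it read 2042 on both embryoid body arrays, against 295 and 380.2 in undifferentiated cells. At 0 mM it read 1995 on both embryoid body arrays, against 324 and 288 in undifferentiated cells. No undifferentiated array reached the embryoid body level. The fold was 6.10 at 20 mM (log2 2.61 ± 0.13, limma adjusted p = 8.37e-05) and 6.53 at 0 mM (log2 2.71 ± 0.13, limma adjusted p = 8.68e-05). Its second probe set read 209 to 251 in embryoid bodies and 61.7 to 129 in undifferentiated cells, with log2 differences of 1.13 at 20 mM and 1.38 at 0 mM.

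SIX3, a homeodomain factor of the anterior forebrain and eye, read 776 and 832 in embryoid bodies with 20 mM ethanol, against 155 and 102 in undifferentiated cells. Without ethanol it read 646 and 661 in embryoid bodies, against 158 and 141 in undifferentiated cells. The stages were apart on every array. Embryoid bodies were 6.38-fold higher at 20 mM (log2 2.67 ± 0.19, limma adjusted p = 0.000235) and 4.37-fold higher at 0 mM (log2 2.13 ± 0.19, limma adjusted p = 0.000560). A second probe set, tied to the RefSeq transcript, read 302 to 417 in embryoid bodies and 60.3 to 74.1 in undifferentiated cells, with log2 differences of 2.47 at 20 mM and 2.28 at 0 mM. The remaining set was above the array median on no array.

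OTX2, a homeodomain factor of forebrain and midbrain that pluripotent cells also express, read 5754 and 5888 in embryoid bodies with 20 mM ethanol, against 5888 and 3162 in undifferentiated cells. At 0 mM it read 5888 and 5754 in embryoid bodies, against 3981 and 3715 in undifferentiated cells. The 4 embryoid body arrays were nearly equal, and the spread lay in undifferentiated replicates A and B at 20 mM. Its second probe set showed the same split of these 2 arrays, at 1698 and 871. The log2 difference between stages was 0.43 ± 0.27 at 20 mM (limma adjusted p = 0.223, 95% interval -0.24 to 1.10) and 0.60 ± 0.27 at 0 mM (limma adjusted p = 0.114, 95% interval -0.07 to 1.27), so neither was called.

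The outcome for OTX2 turned on that pair of arrays. Without undifferentiated replicate A at 20 mM, the difference at 20 mM was log2 0.88 and was called (limma adjusted p = 0.00194). Without replicate B it was -0.02 (limma adjusted p = 0.881). At 0 mM, leaving out either of them gave the same log2 difference of 0.60 with limma adjusted p = 0.00250, and a fit to the 4 arrays at 0 mM alone gave limma adjusted p = 0.00986.

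**Figure D2:**
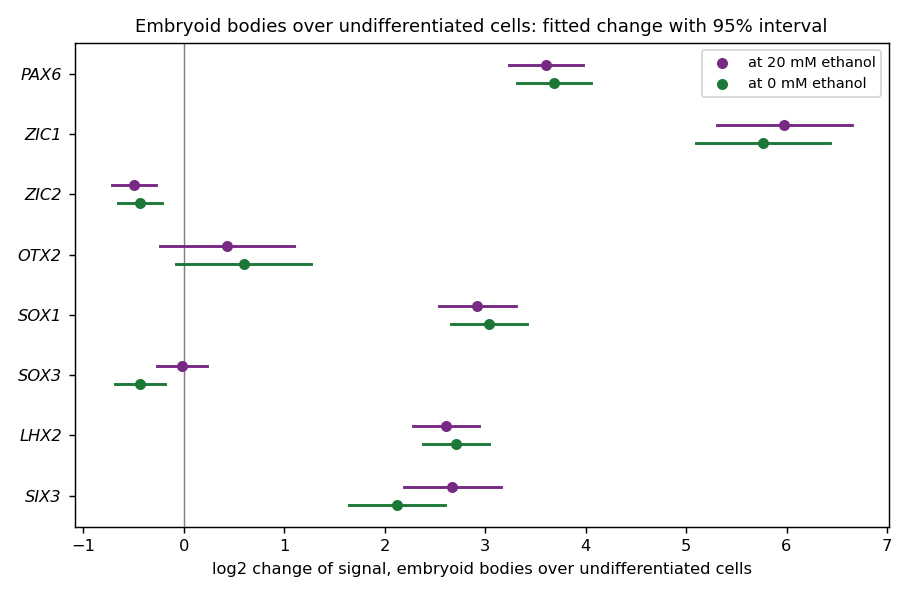
Fitted log2 change of signal, embryoid bodies over undifferentiated cells, for each gene at 20 mM (purple) and 0 mM ethanol (green), with 95% intervals. PAX6, ZIC1, SOX1, LHX2 and SIX3 lie to the right of 0, from SIX3 at 2.13 to ZIC1 at 5.98, while the intervals of OTX2 at both doses and of SOX3 at 20 mM cross 0.

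Across the 8 members, 5 were called higher and 1 lower in embryoid bodies at 20 mM, and 5 higher and 2 lower at 0 mM. Stage differences were common on these arrays: of 14072 genes tested, 29.2% were called higher and 27.1% lower at 20 mM, and 28.1% higher and 24.7% lower at 0 mM. The median log2 difference of the members was 2.64 at 20 mM and 2.42 at 0 mM, beside 0.02 for all genes tested in each case. All 8 members had at least 2 undifferentiated arrays above the median, so none entered the test through embryoid bodies alone. The stages did not overlap for 6 members at 20 mM and for all 8 at 0 mM, beside 77.2% of all genes tested at 20 mM and 78.4% at 0 mM, so separation of the arrays was common.

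The signal levels order the 4 groups differently from gene to gene. PAX6, ZIC1, LHX2, SIX3 and SOX1 had the highest mean in embryoid bodies with 20 mM ethanol, next to that in embryoid bodies with 0 mM, from which it was not told apart by the test. The 2 undifferentiated groups came last for these 5 genes and did not differ by the test either. For ZIC2 the order was reversed, with both undifferentiated groups on top. SOX3 was highest in undifferentiated cells with 0 mM and lowest in embryoid bodies with 0 mM, and both 20 mM groups stood between them.

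**Figure D3:**
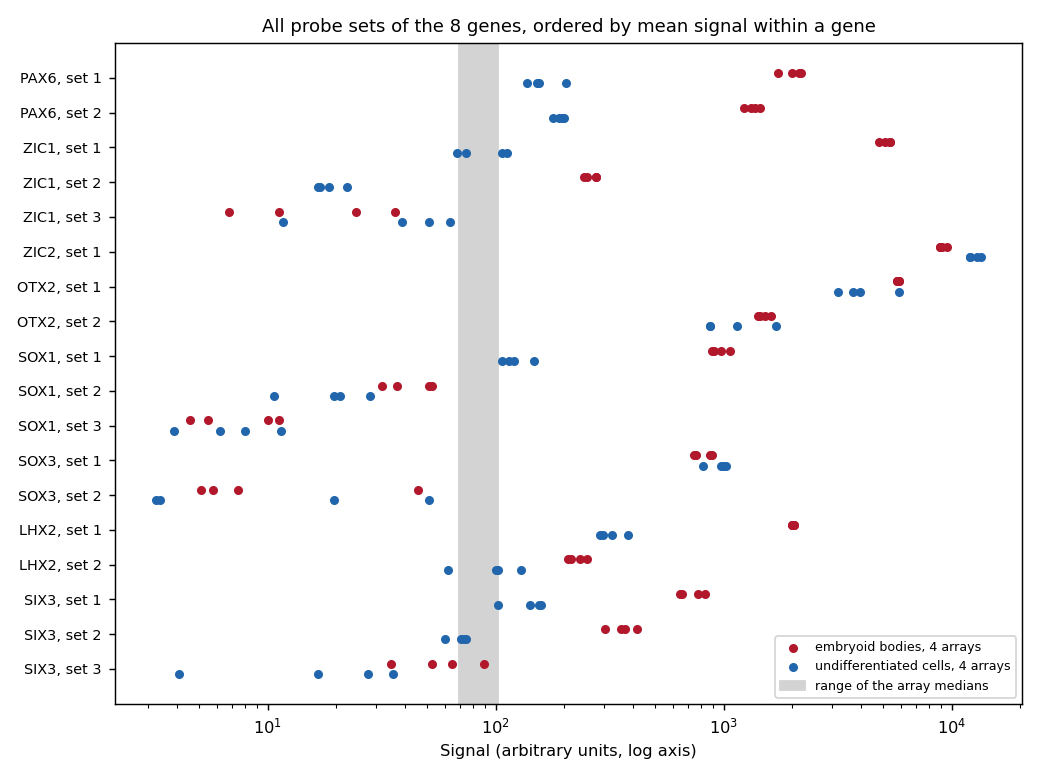
Signal (arbitrary units, log axis) of all 18 probe sets of the 8 genes, red for the 4 embryoid body arrays and blue for the 4 undifferentiated arrays. The grey band is the range of the array medians (69.2 to 102). For PAX6, LHX2 and SIX3 the second probe set separates the stages in the same direction as the first, and sets 2 and 3 of SOX1 lie below the band.

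Of the 10 probe sets that were not a gene's main value, 5 were above the array median on at least 2 arrays, and these belonged to PAX6, ZIC1, OTX2, LHX2 and SIX3. All 5 pointed the same way between stages as the main probe set at both doses. Their differences were smaller at both doses for PAX6, ZIC1 and LHX2. The other 5 probe sets, of ZIC1, SOX1, SOX3 and SIX3, were above the array median on no array.

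Ethanol left all 8 genes uncalled in embryoid bodies, where 0.0711% of the 14072 genes were called in either direction. The log2 changes, 20 mM over 0 mM, ran from -0.03 for ZIC2 to 0.30 for SIX3, with a median of 0.10 beside 0.02 for all genes. No member had an unadjusted limma p under 0.05, against 3137 of all genes. The 95% intervals of the 8 members lay between -0.67 and 0.78 on the log2 scale, so changes beyond these bounds were outside the interval of every member. These bounds came from OTX2 and ZIC1 and use the spread of the undifferentiated arrays as well. The standard error was 0.27 for both genes, against 0.050 and 0.061 in a fit to the 4 embryoid body arrays alone.

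The largest of these was SIX3, at 776 and 832 with 20 mM and 646 and 661 with 0 mM, a 1.23-fold difference without overlap (log2 0.30 ± 0.19, limma adjusted p = 0.410). Its second probe set overlapped, at 372 and 355 with 20 mM and 302 and 417 with 0 mM (log2 0.03). SOX3 had the smallest p, with 891 and 871 at 20 mM and 741 and 759 at 0 mM, a 1.17-fold difference without overlap (log2 0.23 ± 0.10, limma adjusted p = 0.246). For PAX6 the main probe set gave log2 0.22 ± 0.15 (limma adjusted p = 0.439) and the second gave -0.15, so the direction of PAX6 depends on the probe set. The doses did not overlap for 5 of 8 members, PAX6, ZIC1, SOX3, LHX2 and SIX3, which is near the share of all genes tested (57.5%). OTX2 had the same mean at both doses (log2 0.00 ± 0.27, limma adjusted p = 1).

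The array median and the summed signal of several marker lists moved with ethanol in embryoid bodies as well. The summed signal of 9 endoderm and yolk sac genes was 37633 and 37051 with 20 mM, against 28827 and 28701 with 0 mM. That of 9 mesoderm genes was 6517 and 6322 with 20 mM, against 4468 and 4719 with 0 mM. That of 12 pluripotency genes was 97271 and 94532 with 20 mM, against 108883 and 105730 with 0 mM, and that of 13 neuronal genes was 27573 and 26342 with 20 mM, against 30999.7 and 30250.4 with 0 mM. Such sums rest mostly on the brightest genes of a list. The median log2 changes of the tested genes were 0.22, 0.50, -0.18 and -0.05 in the same order, beside 0.02 for all genes. None of these lists had a gene called. In the same order, 2 of 9, 2 of 6, 5 of 12 and 5 of 12 tested genes had an unadjusted limma p under 0.05, beside 3137 of all 14072. The sums of the remaining lists did not overlap between the doses in embryoid bodies either. That of the 8 members was 27163.5 and 27015.5 with 20 mM, against 26026.8 and 26391.7 with 0 mM. The part of the shifts of the array median and of the other lists in the members' values was not tested. Centring each array on its median, which takes out the shift of the array median, turned the sign for PAX6, ZIC1, SOX1, SOX3 and LHX2, all still uncalled, and made ZIC2 lower with ethanol (log2 -0.30, limma adjusted p = 0.0496). That setting called 3880 of the 14072 genes, of which 3708 were lower, so the ZIC2 call is nothing particular to it.

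In undifferentiated cells no member was called for ethanol, where 0.00711% of genes were called in either direction. The log2 changes ran from -0.25 for SIX3 to 0.30 for PAX6, with a median of 0.08 beside 0.02 for all genes. No member had an unadjusted limma p under 0.05, against 986 of all genes, and the 95% intervals lay between -0.77 and 0.84. PAX6 read 204 and 155 with 20 mM and 151 and 138 with 0 mM, without overlap (log2 0.30 ± 0.15, limma adjusted p = 0.775). Its second probe set gave -0.10. SOX3 read 813 and 977 with 20 mM and 1000 and 1023 with 0 mM, without overlap and in the other direction (log2 -0.18 ± 0.10, limma adjusted p = 0.802). The doses did not overlap for these 2 of the 8 members, near the share of all genes tested (27.5%).

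**Figure D4:**
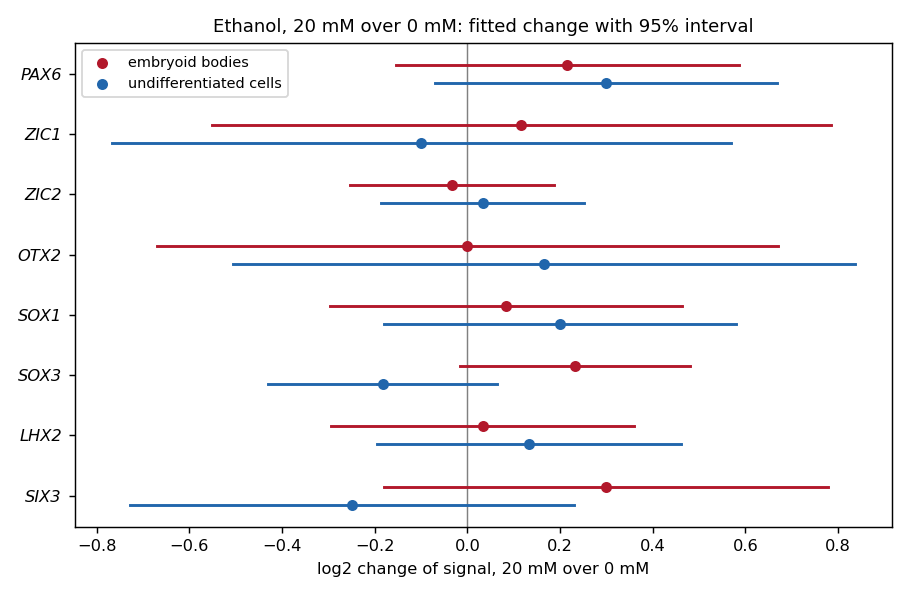
Fitted log2 change of signal, 20 mM over 0 mM ethanol, for each gene in embryoid bodies (red, upper) and in undifferentiated cells (blue, lower), with 95% intervals. Every interval crosses 0. For SOX3 the points lie on opposite sides, at 0.23 in embryoid bodies and -0.18 in undifferentiated cells. In the same order, so do those of SIX3 (0.30 and -0.25), ZIC1 (0.12 and -0.10) and ZIC2 (-0.03 and 0.03).

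Replicate A of undifferentiated cells with 20 mM ethanol stood alone as the highest of the 4 undifferentiated arrays for 4 of the 8 members, PAX6, ZIC2, OTX2 and SOX1. It did so for 51.6% of the 31 other neural genes tested and for 27.5% of all genes tested. Without it, the OTX2 change with ethanol was -0.28 (limma adjusted p = 0.490), where the full set gave 0.17 ± 0.27 (limma adjusted p = 0.962).

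The ethanol effect in embryoid bodies less the effect in undifferentiated cells was called for no member and for 0% of all genes by limma. Of the members 1 had an unadjusted p under 0.05, and of all genes 1828. That member was SOX3, with a log2 difference of 0.42 ± 0.14 (95% interval 0.07 to 0.77, limma adjusted p = 0.343). SIX3 followed with 0.55 ± 0.27 (limma adjusted p = 0.450). The other members lay between -0.17 and 0.22.

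A wider list of 40 neural plate and neural progenitor genes puts the members in context. Of these, 37 had at least 1 probe set to themselves, and 31 passed the filter on dim signals. Embryoid bodies were higher for 24 and lower for 4 at each dose, with a median log2 difference of 1.51 at 20 mM and 1.93 at 0 mM, beside 0.02 for all genes. However, 9 of the 24 had fewer than 2 undifferentiated arrays above the median and so entered the test through embryoid bodies, where they had to be higher. Of the 20 genes above the median on at least 2 arrays of each stage, 15 were higher and 3 lower at each dose. The summed signal of the 37 genes was 81823 to 85932 in embryoid bodies and 47261 to 53153 in undifferentiated cells.

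NR2F1, a nuclear receptor of the patterned forebrain, read 4169 to 4786 in embryoid bodies and 47.9 to 67.6 in undifferentiated cells, where every array was under its median. Set against the median signal of those arrays, it was at least 54.3-fold higher at 20 mM and 65.3-fold at 0 mM. The fit took the dim values as read and gave 84.1-fold and 71.6-fold (limma adjusted p = 4.88e-06 and 4.69e-06). POU3F3, a POU factor of the developing cortex, read 955 to 1318 in embryoid bodies and 26.3 to 38.0 in undifferentiated cells, also under the median. By the same bound it was at least 16.4-fold higher at 20 mM and 14.0-fold at 0 mM. NR2F1 and POU3F3 thus entered the test through embryoid bodies, where they had to be higher. DACH1, a cofactor of the eye gene network, was 9.33-fold higher at 20 mM and 11.9-fold at 0 mM. EMX2, which patterns dorsal forebrain, was 10.8-fold higher at 20 mM (limma adjusted p = 4.55e-05). POU3F2, a neural POU factor, was at least 10.5-fold higher at 0 mM by the same bound. Its values as read gave 13.3-fold (limma adjusted p = 4.24e-05).

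The genes that were lower in embryoid bodies included close relatives of the members. ZIC5, which neighbours ZIC2 in the genome, read 97.7 and 107 in embryoid bodies with 20 mM, against 199.5 on both undifferentiated arrays, and 112 and 93.3 in embryoid bodies with 0 mM, against 199.5 and 209. It was 1.95 times lower in embryoid bodies at 20 mM (limma adjusted p = 0.000922) and 1.995 times lower at 0 mM (limma adjusted p = 0.000978), the same direction as ZIC2. POU3F1, a POU factor also active in epiblast, was called lower at both doses. Its signals were 30.9 to 55.0 in embryoid bodies, under the median on every array, and 97.7 to 114.8 in undifferentiated cells. POU3F1 thus entered the test through undifferentiated cells, where it had to be higher. SFRP1, a secreted WNT antagonist, was 1.76 times lower at 20 mM and 1.55 times lower at 0 mM. HESX1, a repressor of the anterior forebrain, was called lower at 0 mM alone, by 1.64 times (limma adjusted p = 0.0444), with 1.43 times lower at 20 mM (limma adjusted p = 0.107).

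SOX2, shared by pluripotent and neural progenitor cells, read 14454 and 12882.5 in embryoid bodies with 20 mM, against 19498 and 18621 in undifferentiated cells. With 0 mM it read 17783 and 16982 in embryoid bodies, against 18197 and 16596 in undifferentiated cells, which overlapped. It was 1.40 times lower at 20 mM (limma adjusted p = 0.00621), and the stage means were equal at 0 mM (limma adjusted p = 1). ZIC4, the genomic neighbour of ZIC1, was too dim for the test and read 47.9 to 75.9 in embryoid bodies and 16.2 to 24.5 in undifferentiated cells. OTX1, the relative of OTX2, was too dim as well, at 57.5 to 100 in embryoid bodies and 24.5 to 64.6 in undifferentiated cells.

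**Figure D5:**
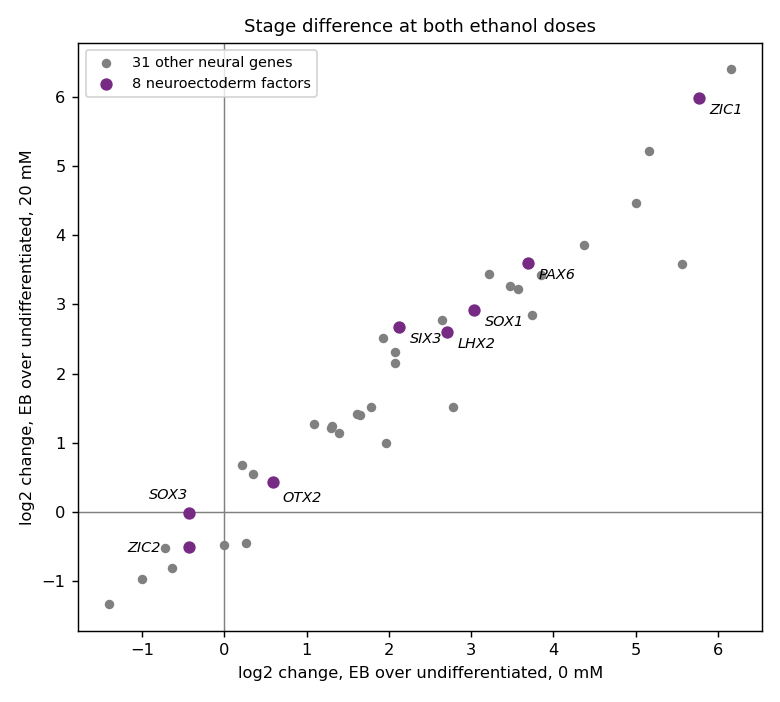
Log2 difference between embryoid bodies and undifferentiated cells at 20 mM (vertical) against the same at 0 mM ethanol (horizontal), for the 8 members (purple, named) and 31 other neural genes tested (grey). Each point is 1 gene. The 5 members that were higher in embryoid bodies lie among the 24 other neural genes that were higher, and ZIC2 and SOX3 lie with the few genes near or below 0.

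Ethanol called none of the 31 other neural genes by limma in either stage. An unadjusted limma p under 0.05 was found for 4 in embryoid bodies and 8 in undifferentiated cells. Of all 14072 genes, 3137 were under 0.05 in embryoid bodies and 986 in undifferentiated cells. Under alternatives, 5 were called in embryoid bodies with median centring, 1 there with a trended and robust variance, and 1 in undifferentiated cells without replicate B at 20 mM. The median log2 change of the 31 genes was 0.05 in embryoid bodies and 0.20 in undifferentiated cells, beside 0.02 for all genes at each stage.

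Markers of other cell types differed between the stages together with the members. Some of these markers had fewer than 2 undifferentiated arrays above the median. They entered the test through embryoid bodies, where they had to be higher, and the counts below include them. These were FOXA1, GATA4 and FGB of endoderm, TFAP2A and TWIST1 of neural crest, and FOXF1 of mesoderm. TFAP2B, DLX5, EYA1 and KRT5 of non-neural ectoderm and placodes and the neuronal genes ELAVL3 and ELAVL4 were the others. All 9 endoderm and yolk sac genes tested were called higher in embryoid bodies at both doses, with sums of 28701 to 37633 in embryoid bodies and 758 to 1036.5 in undifferentiated cells. Of 7 neural crest genes, 5 were higher and 1 lower at each dose, with sums of 7747 to 9080.1 in embryoid bodies and 3331 to 4539.6 in undifferentiated cells. Of 7 tested genes of non-neural ectoderm and placodes, where SIX3, PAX6 and SOX3 can also be active, 6 were higher at 20 mM and 5 at 0 mM, with sums of 5592 to 6081 in embryoid bodies and 1581 to 2191 in undifferentiated cells. Of 12 neuronal genes tested, 8 were higher at each dose and 2 lower at 20 mM, with sums of 26342 to 30999.7 in embryoid bodies and 23946 to 24314 in undifferentiated cells. Of 6 tested mesoderm genes, 3 were higher at each dose and 1 lower at 0 mM, with sums of 4468 to 6517 in embryoid bodies and 2389.6 to 3103 in undifferentiated cells. Of 12 pluripotency genes, 9 were lower at 20 mM and 8 at 0 mM, with sums of 94532 to 108883 in embryoid bodies and 133450 to 143255 in undifferentiated cells. No marker was listed at 0, but the epidermal keratin KRT14 (6.5 to 24.0 in embryoid bodies), the proneural factor NEUROG2 (2.1 to 3.6) and the primitive streak gene MIXL1 (5.8 to 39.8) were under the median on every array. The part of other cell types in the members' stage difference was not tested.

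The 3 tested genes most like each member were taken by Pearson correlation of log2 signal over the 8 arrays. The arrays fall into 2 stages, so for PAX6, ZIC1, SOX1, LHX2 and SIX3 the measure mostly restates that split: their nearest genes were SMAD9, IGFBP5 and LEF1 for PAX6, PDZK1, CKAP4 and SCARB2 for ZIC1, MGAT5, BOC and SULF2 for SOX1, AXIN2, LYPD1 and DKK1 for LHX2, and AKR1D1, MALAT1 and DERL1 for SIX3. ZIC2 was nearest to WTAP, RMDN1 and FHL2 (r = 0.996, 0.992 and 0.992), each higher in undifferentiated cells. OTX2 was nearest to PSG11, CLU and PRRX2 (r = 0.988, 0.966 and 0.962). These 3 shared with OTX2 the gap between replicates A and B of undifferentiated cells at 20 mM, for example 5129 and 3162 for CLU. PSG11 (32.4 to 102) and PRRX2 (30.9 to 129) were near or under the array median. SOX3 was nearest to MYO1D, WDR44 and UMAD1 (r = 0.985, 0.976 and 0.967). These coefficients describe 8 arrays and come from a search over the tested genes, leaving out transcripts that differ between cell lines.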

How the data were processed

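The deposited values, 1 per probe set and array, are log10 signals by the evidence of the values: they run from -1.46 to 4.61 in steps of 0.01, which is 0.03 on the log2 scale. The submitters' processing notes name RMA, but after cutting 2% at each end the mean signal of each array is 499.96 to 500.13, as global scaling of MAS 5 type leaves it. The design assumed log2 values, so the deposited log10 values were put on the log2 scale by a constant factor, with no further normalisation. The array platform's annotation named 1 gene for 41091 of 54675 probe sets, several for 1801 and none for 11721, besides 62 controls. Genes with at least 2 arrays above that array's median were tested (14072).

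Limma 3.58.1 in R 4.3.3 fitted 1 mean per group to all 8 arrays, with 4 residual and 1.81 prior degrees of freedom. A Benjamini-Hochberg adjusted p under 0.05 over all genes was a call. On data simulated for the stage comparison at 0 mM over 14072 genes, only a small share of the genes was changed. The fit recovered 10% of genes changed by log2 0.5, 64.8% by 1, 85.2% by 2 and 92.4% by 3. In the real comparison 28.1% of genes were called higher and 24.7% lower. The cutoff on the unadjusted p was therefore looser there, and these rates do not describe it. Alternatives covered the filter, the probe set rule, scaling, a signal floor of 50, the variance model, the arrays in the fit and the replicate letter. Deviations of same-lettered arrays correlated by -0.03 to 0.05, so the letters were not treated as pairs.

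The members and gene lists were chosen with earlier results of these data known. Named were the 8 members, of the other neural genes up to 4 called genes per direction with the smallest p in each comparison with SOX2, ZIC5, OTX1 and POU3F1, the 3 genes most like each member, and leading or lowest genes of the other lists. NANOG was named without being among the brightest genes of its list. Promoter windows from RefSeq (GRCh38.p14) matched 7 members, all but SIX3. With 2 arrays a group, their number limits the precision.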

Additional observations from a re-analysis of the deposited data

Results flagged for a closer look

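SOX3 was the 1 member whose ethanol effect ran in opposite directions in the 2 stages on every array. It read 891 and 871 with 20 mM and 741 and 759 with 0 mM in embryoid bodies, and 813 and 977 with 20 mM and 1000 and 1023 with 0 mM in undifferentiated cells. The embryoid body effect less the undifferentiated effect was 0.42 on the log2 scale (limma unadjusted p = 0.0275, adjusted p = 0.343), which is not a call. Centring each array on its median gave log2 -0.033 in embryoid bodies, and the SOX3 values rest on a single probe set.

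A probe set that names ZIC1 together with LOC440982 was outside the comparisons because it names more than 1 gene. It read 224 and 199.5 in embryoid bodies with 20 mM and 209 and 204 with 0 mM, a geometric mean of 209 over 4 arrays. In undifferentiated cells it read 5.75 and 5.01 with 20 mM and 18.6 and 3.80 with 0 mM, a geometric mean of 6.72.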

How the results depend on the processing

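The members' stage calls for PAX6, ZIC1, SOX1, LHX2 and SIX3 held at both doses under each alternative that gave a value; the mean of probe sets gave none for SOX1, whose other probe sets are dim. Under the replicate block, 0 members were called for either ethanol comparison or their difference, 6 for stage at 20 mM and 7 at 0 mM, as without it. Median centring called 1 member for ethanol in embryoid bodies (ZIC2), with 3880 of 14072 genes. For ethanol in embryoid bodies, median centring turned the sign of PAX6 (-0.050), ZIC1 (-0.15), SOX1 (-0.18), SOX3 (-0.033) and LHX2 (-0.23), quantile normalisation that of ZIC2 (0.044), the mean of probe sets that of LHX2 (-0.017), and other probe sets those of PAX6 (-0.15), ZIC1 (-0.017) and LHX2 (-0.066). In undifferentiated cells the mean of probe sets turned ZIC1 (0.16), SOX3 (0.24) and SIX3 (0.50), median centring ZIC2 (-0.10) and the other probe set PAX6 (-0.10). For the difference of effects, quantile normalisation turned PAX6 (0.029), and the mean of probe sets ZIC1 (-0.094) and SIX3 (-0.22); for stage at 20 mM it turned SOX3 (0.25).

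Leaving out 1 array in turn gave log2 values on both sides of 0 for ethanol in embryoid bodies (ZIC2 -0.083 to 0.017, SOX1 -0.033 to 0.20); for ethanol in undifferentiated cells (ZIC1 -0.43 to 0.23, ZIC2 -0.050 to 0.12, OTX2 -0.28 to 0.61, LHX2 -0.050 to 0.32, SIX3 -0.55 to 0.050); for the difference of effects (PAX6 -0.28 to 0.12, ZIC1 -0.12 to 0.55, ZIC2 -0.15 to 0.017, OTX2 -0.61 to 0.28, SOX1 -0.30 to 0.066, LHX2 -0.28 to 0.083); for stage at 20 mM (OTX2 -0.017 to 0.88, SOX3 -0.15 to 0.12). The values as reported were not called in any of these, but OTX2 for stage at 20 mM was called at 0.88. The causes were not tested.

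Over all genes, ethanol calls were unstable: 10 in embryoid bodies, with 0 to 3880 under alternatives, 1 in undifferentiated cells, with 0 to 34, and 0 for the difference, with 0 to 31. The median over all genes shifted under median centring by -0.27 for ethanol in embryoid bodies, -0.13 in undifferentiated cells, -0.42 for stage at 20 mM and -0.28 at 0 mM, and under quantile normalisation by -0.11 for stage at 20 mM. Higher and lower calls under median centring were 2270 and 6822 for stage at 20 mM (4115 and 3810 as deposited), 2507 and 5813 at 0 mM (3948 and 3478) and 172 and 3708 for ethanol in embryoid bodies (6 and 4; 35 and 27 with quantile normalisation). The 4-array fit could not be made for the difference, which needs all 4 groups. With 2 arrays a group, leaving 1 out assumes that the lone array varies like the other groups.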

Other observations

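Genomic neighbours of the members were looked at after values had been seen. OTX2-AS1, the antisense transcript beside OTX2, read 166 and 186 in embryoid bodies with 20 mM and 162 and 199.5 with 0 mM, against 51.3 and 41.7 in undifferentiated cells with 20 mM and 15.8 and 10.5 with 0 mM. All of its undifferentiated values were under the array median, so it entered the test through embryoid bodies. Set against the median signal of those arrays, it was at least 2.29-fold higher in embryoid bodies at 20 mM and 2.57-fold at 0 mM. Its ethanol change in undifferentiated cells was not called (log2 1.84, limma adjusted p = 0.203).

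SIX2, the neighbour of SIX3 and a factor of kidney progenitors, read 224 and 190.5 in embryoid bodies with 20 mM and 102 on both arrays with 0 mM. In undifferentiated cells it read 132 and 129 with 20 mM and 107 and 89.1 with 0 mM. Its change with ethanol in embryoid bodies was log2 1.01 and missed the threshold (limma adjusted p = 0.0593). SIX3 changed by log2 0.30 on the same arrays (limma adjusted p = 0.410).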
